A study of Rattus norvegicus with 40 samples.

Results

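Fatty acid elongases and desaturases are membrane enzymes of the endoplasmic reticulum that lengthen fatty acids and place double bonds in them. Members were chosen by symbol, as every probe set that the platform annotation assigns to Elovl1, Elovl2, Elovl5, Elovl6, Fads1, Fads2 or Scd. The rule found 7 of the 15866 non-control probe sets, which measure 6 of the 7 named genes out of 10411 genes in all. Elovl5 has 2 probe sets (1388348_at and 1387630_at), and Elovl1 (1398360_at), Elovl6 (1388108_at), Fads1 (1367857_at), Fads2 (1368453_at) and Scd (1370355_at) have 1 each. Elovl2 has no probe set under its symbol and was not analysed here.

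Hepatic RNA of 40 male rats, aged 10 to 12 weeks, was hybridised to Affymetrix RAE230A arrays, with 1 array per rat. Every rat was given either a single gavage of 100 µg/kg TCDD (2,3,7,8-tetrachlorodibenzo-p-dioxin) or corn oil, the vehicle. The aryl hydrocarbon receptor (AHR) is of wild type in the dioxin-sensitive rats, which are Long-Evans (L-E) and Line C (called LnC here). It lacks part of its transactivation domain, through a deletion, in the dioxin-resistant rats, which are Han/Wistar (H/W) and Line A (called LnA). At 19 h there were 4 rats per treatment in each strain/line (8 groups), and at 3 h there were 4 L-E and 4 H/W rats, all given TCDD. No corn oil array of 3 h was analysed here, and livers of both times were removed in the same morning hours, so the hour of dosing differs between 3 h and 19 h. LnA and LnC were both bred from crosses of H/W with L-E, and each treatment group was kept in a single cage, so treatment and cage cannot be told apart and p-values measure the spread between rats within a cage.

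The elongases carry out the condensation that begins each round of chain lengthening, with malonyl-CoA as the donor. Elovl6 lengthens the saturated and monounsaturated acids that fatty acid synthase and Scd make, Elovl5 acts on polyunsaturated acids, and Elovl1 on saturated acids of very long chain. Scd (stearoyl-CoA desaturase) makes monounsaturated acids and is a well-known lipogenic gene of the liver, while Fads1 and Fads2 desaturate the dietary linoleic and alpha-linolenic acids on their way to arachidonic and docosahexaenoic acid.

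TCDD acts by binding the AHR, which with its partner ARNT recognises DNA sites with the core GCGTG. Because the question for each member was whether its mRNA moves with an AHR ligand, the reference promoter windows (RefSeq, build GRCr8, 250 bases before to 50 bases after each start) were searched for that core on both strands, where it reads GCGTG or CACGC. Windows were listed for 6 of the 7 named genes, Elovl6 being the exception. The core was present in the windows of Elovl5, Scd and Fads1 and in 1 of the 2 windows of Elovl2, and it was not found in those of Elovl1 and Fads2. Among all 33469 windows 29.7% hold it, so its presence is common. That share is not matched for base content. The windows of members held 52.7% (Elovl1) to 84.7% (the Elovl2 window without the core) G and C, against a median of 51.7% over all windows. Elovl5, the member with the most calls, Elovl1, which lay lower in TCDD-treated than in corn oil L-E and LnC rats, and Scd, the desaturase with the largest difference between TCDD and corn oil in L-E, are printed below in the direction of transcription, with the AHR core in capitals.
Elovl5, chr8:87670914-87671213, + strand: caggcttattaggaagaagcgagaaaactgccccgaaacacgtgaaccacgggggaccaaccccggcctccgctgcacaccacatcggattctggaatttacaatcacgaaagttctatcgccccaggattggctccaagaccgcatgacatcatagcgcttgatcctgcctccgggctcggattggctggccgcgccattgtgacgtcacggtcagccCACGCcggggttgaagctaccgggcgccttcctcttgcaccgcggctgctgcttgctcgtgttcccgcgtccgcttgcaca
Elovl1, chr5:137247905-137248204, + strand: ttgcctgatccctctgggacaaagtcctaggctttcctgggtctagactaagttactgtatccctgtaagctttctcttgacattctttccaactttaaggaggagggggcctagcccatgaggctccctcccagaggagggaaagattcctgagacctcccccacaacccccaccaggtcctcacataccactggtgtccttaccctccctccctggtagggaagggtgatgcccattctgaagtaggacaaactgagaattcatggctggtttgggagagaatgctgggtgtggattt
Scd, chr1:253231682-253231981, - strand: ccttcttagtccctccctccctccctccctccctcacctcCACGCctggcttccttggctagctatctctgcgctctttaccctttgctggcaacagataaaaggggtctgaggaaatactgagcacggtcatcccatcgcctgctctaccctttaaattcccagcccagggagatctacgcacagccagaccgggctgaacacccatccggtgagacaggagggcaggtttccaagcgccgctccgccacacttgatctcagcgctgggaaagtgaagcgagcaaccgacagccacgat

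The core of Elovl5 begins 31 bases before the start, on the opposite strand, and that of Scd 210 bases before it, also on the opposite strand. Elovl5 in addition holds 1 CACGTG box (6.42% of all windows), an E-box that USF and other basic helix-loop-helix factors bind, 212 bases before the start, and 2 CCAAT boxes (37.5% of all windows) at 122 and 68 bases before it, and none of these matches overlap each other. The longer motif TCACNCCAC, a form of the sterol regulatory element, occurs in 1.12% of all windows and in no window of a member. A match of letters is a description of the reference sequence and was not tested as a binding site.

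Elovl5 was the member called in most comparisons. On 1388348_at, its brighter probe set, the log2 signals of the corn oil L-E rats were 12.08, 12.06, 12.38 and 12.64, and those of the L-E rats 19 h after TCDD were 13.55, 13.41, 13.72 and 13.74. In H/W the corn oil rats gave 11.62, 11.79, 11.84 and 12.21 and the TCDD rats 13.19, 13.09, 12.95 and 13.02. All 4 treated rats therefore lay above all 4 controls in both parental strains. In LnC the controls were 12.27, 12.39, 12.44 and 12.40 against 13.48, 13.48, 13.51 and 13.41 after TCDD. In LnA they were 11.78, 12.15, 12.40 and 12.46 against 12.88, 12.87, 13.30 and 13.09. The groups did not overlap in either line, and LnC had the tightest groups of the 4 strains/lines.

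Elovl5 rose 2.48-fold in L-E (log2 difference 1.31 ± 0.15 SE, limma, adjusted p = 0.00394), 2.13-fold in LnC (1.09 ± 0.04, adjusted p = 4.79e-05) and by 1.20 ± 0.12 on the log2 scale in H/W (adjusted p = 0.00464). In LnA the difference was 0.84 ± 0.17 (1.79-fold) with an adjusted p of 0.0449, which misses the threshold of 0.01 that the study set. Calls in L-E and H/W were close to that threshold. With any 1 of 6 of the 8 L-E arrays left out (all but corn oil replicate 4 and TCDD replicate 2) the adjusted p was between 0.0120 and 0.0169, and with any 1 of 7 of the 8 H/W arrays left out (all but corn oil replicate 4) it was between 0.0150 and 0.0233, while the difference itself stayed between 1.23 and 1.43 in L-E and between 1.12 and 1.31 in H/W. With scan day as a block the adjusted p was 0.00797 in L-E and 0.0245 in H/W. Within each scan day that held both treatments the difference was positive, with 1.46 and 1.26 on the 2 days of L-E and 1.57, 1.20 and 0.82 on the 3 days of H/W.

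The other Elovl5 probe set, 1387630_at, gave larger differences from a lower signal. It rose by 1.59 ± 0.12 in LnC (adjusted p = 0.00127 over all probe sets), and differed by 1.54 ± 0.22 in L-E (0.0116), 1.12 ± 0.17 in LnA (0.0159) and 1.80 ± 0.23 in H/W (0.0152), which miss the threshold. Its H/W rats ranged from 8.70 to 9.86 with corn oil and from 10.98 to 11.17 with TCDD. Treated and control rats did not overlap on this probe set in any of the 4 strains/lines. The deposited table gives no reason to prefer either probe set, and their order of strains/lines by size of difference is not the same.

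**Figure D1:**
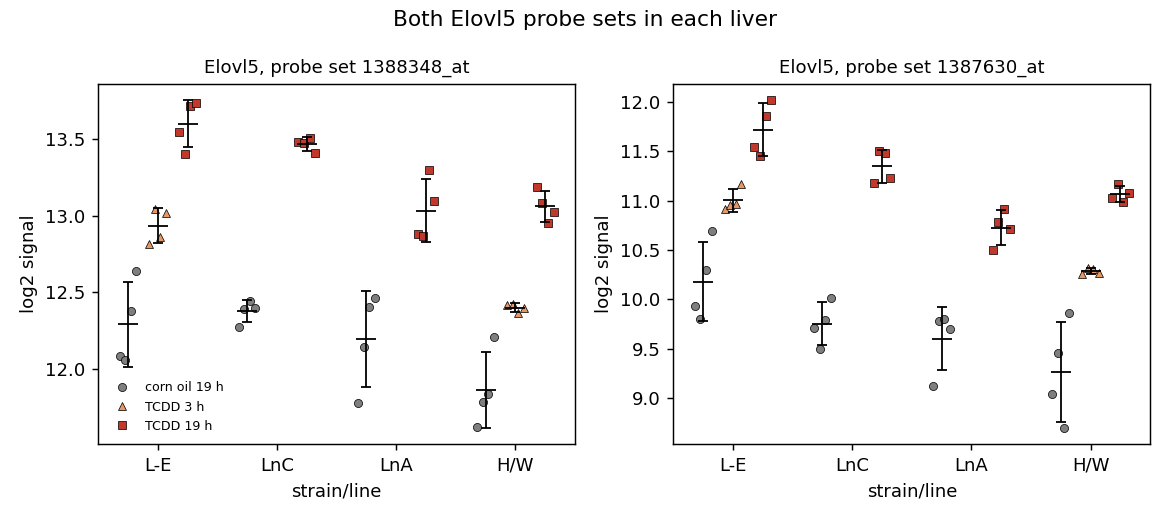
Log2 signal of the 2 Elovl5 probe sets (y axes) in each liver of the 4 strains/lines (x axes), with bars for the mean ± SD of 4 rats. On both probe sets every TCDD rat at 19 h lies above every corn oil rat of its strain/line, and the 3 h TCDD rats of L-E and H/W lie between the other groups of their strain.

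Among the livers taken 3 h after TCDD, Elovl5 (1388348_at) read 12.82, 13.04, 12.86 and 13.02 in L-E and 12.42, 12.42, 12.37 and 12.40 in H/W. These values lie above all corn oil rats and below all 19 h TCDD rats of the same strain, on both probe sets. Elovl5 rose from 3 h to 19 h by 0.67 ± 0.09 in L-E (adjusted p = 0.00501) and by 0.66 ± 0.05 in H/W (adjusted p = 0.000503). At 3 h it was 0.53 ± 0.06 higher in L-E than in H/W (adjusted p = 0.00321). On 1387630_at the change with time was 0.72 ± 0.13 in L-E (adjusted p = 0.0190, past the threshold in H/W only) and the strain difference at 3 h 0.72 ± 0.06 (0.00109). On 1388348_at the L-E change with time misses the threshold with any 1 of 7 of its 8 arrays left out (adjusted p up to 0.0183, difference 0.62 to 0.73), and the strain difference does so without any 1 of the 4 H/W arrays (adjusted p up to 0.0128, difference 0.50 to 0.57). All 8 arrays of 3 h shared a scan day that held no other array, so time and scan day cannot be told apart.

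Elovl6 had the largest difference of the 6 genes between TCDD and corn oil in L-E, LnC and LnA, while Elovl5 had it in H/W. Elovl6 was among the genes that the study singled out on these same samples, also for RT-PCR, so its values are no independent evidence for the choice. L-E rats given corn oil read 4.83, 4.16, 4.21 and 4.72, and those given TCDD read 8.13, 7.37, 8.24 and 8.29. LnC rats read 4.75, 3.73, 4.44 and 3.65 with corn oil and 6.29, 5.21, 5.62 and 6.22 with TCDD. Treated and control rats were fully apart in both sensitive strains/lines, and the LnC rats given TCDD were all below the L-E rats given TCDD.

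In the resistant rats the Elovl6 groups overlapped. LnA rats read 4.84, 6.45, 5.58 and 4.99 with corn oil and 6.08, 10.29, 7.14 and 7.69 with TCDD, and H/W rats read 7.04, 3.89, 5.18 and 3.58 with corn oil and 5.66, 5.81, 6.64 and 5.77 with TCDD. The spread of LnA after TCDD (SD 1.79, n = 4) came mostly from replicate 2, the highest of the 32 arrays of 19 h, and that of the H/W controls (SD 1.57, n = 4) from replicate 1, which exceeded every treated H/W rat. The lowest Elovl6 values (3.58 in H/W and 3.65 in LnC, both with corn oil) are about as low as the median signal of an array (3.52 to 3.76), so a difference that starts from them depends on the low end of the scale.

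Elovl6 rose 11.6-fold in L-E (3.53 ± 0.25 on the log2 scale, adjusted p = 0.000931), and it passed the threshold with each of the 8 arrays left out in turn. In LnC the difference was 1.69 ± 0.34 (adjusted p = 0.0423), in LnA 2.34 ± 0.86 (0.257) and in H/W 1.05 ± 0.72 (0.595). Without LnA TCDD replicate 2 the LnA difference was 1.51, and without H/W corn oil replicate 1 the H/W difference was 1.75. Within scan days, the L-E differences were 3.30 and 3.61, whereas those of H/W were -1.38 on the day that held corn oil replicate 1 and 1.69 and 2.19 on the other days. In the study, which used RMA values with an Entrez probe map, Elovl6 was called in both L-E and LnC. The study's log2 differences for Elovl6 were smaller than those given here in every strain/line, and the reason was not tested. By RT-PCR the study also reported a significant rise of Elovl6 in the sensitive rats and none in the resistant rats. Its RT-PCR values were not analysed here.

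The difference in Elovl6 response between L-E and H/W was 2.48 ± 0.82 (95% interval 0.73 to 4.24, unadjusted p = 0.00904), and it did not pass after adjustment over all genes (adjusted p = 0.355). Between LnC and LnA it was -0.64 ± 0.98 (interval -2.75 to 1.47), and between the sensitive and the resistant collective 0.92 ± 0.65 (interval -0.42 to 2.27, adjusted p = 0.581). The sign between LnC and LnA turned to 0.19 without LnA TCDD replicate 2. A call in L-E and none in H/W therefore does not show that these strains responded differently.

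At 3 h after TCDD Elovl6 was higher than at any other time or treatment in L-E, at 9.50, 10.16, 9.54 and 8.59, against 7.34, 7.09, 5.95 and 7.37 in H/W. The L-E rats lay wholly above the H/W rats (2.51 ± 0.43, adjusted p = 0.0169) and also above the L-E rats of 19 h. From 3 h to 19 h the difference was -1.44 ± 0.35 in L-E (adjusted p = 0.0475) and -0.97 ± 0.37 in H/W (0.162). None of these passed the threshold, although the strain difference at 3 h did (0.00808) when the 40% of genes with the lowest signal were left out and (0.00921) in a fit over all 10 groups. That strain difference missed the threshold in 7 of the 9 alternatives (adjusted p up to 0.0566) and with each array left out in turn (up to 0.0509). In the same L-E livers 3 h lay wholly below 19 h for Elovl5 and wholly above it for Elovl6.

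Elovl1 differed little in size but with narrow groups. Corn oil L-E rats read 7.60, 7.61, 7.66 and 7.86 and TCDD L-E rats 6.93, 7.04, 7.22 and 7.25. Corn oil LnC rats read 7.87, 7.85, 7.97 and 7.96 and TCDD LnC rats 7.41, 7.10, 7.42 and 7.01. Every treated rat of these strains/lines was below every control, while in LnA (6.75 to 7.68 after TCDD, 7.64 to 8.18 with corn oil) and H/W (6.65 to 7.59 and 7.34 to 7.67) the groups overlapped.

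TCDD minus corn oil for Elovl1 was -0.57 ± 0.09 for L-E (adjusted p = 0.0133), -0.68 ± 0.10 for LnC (0.0154), -0.34 ± 0.18 for H/W (0.527) and -0.56 ± 0.20 for LnA (0.247). None passed the threshold in the fit of each strain/line by itself. Both sensitive strains/lines passed it (0.0072 in L-E and 0.00825 in LnC) when the 40% of genes with the lowest signal were left out. The reason was not tested. Across the alternatives the adjusted p reached 0.0233 in L-E and 0.0714 in LnC. The response did not differ detectably between L-E and H/W (-0.23 ± 0.22, interval -0.70 to 0.23) or between LnC and LnA (-0.12 ± 0.24, interval -0.63 to 0.40, and 0.02 without LnA TCDD replicate 3).

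Among the member desaturases (Scd, Fads1 and Fads2), Scd had the largest SD in 8 of the 10 groups. The exceptions were LnA at 19 h after TCDD (0.393 against 0.531 for Fads2) and H/W at 3 h (0.189 against 0.567 for Fads2 and 0.368 for Fads1). L-E rats read 10.01, 9.40, 8.74 and 10.96 with corn oil and 12.35, 10.68, 13.16 and 12.78 with TCDD at 19 h. H/W rats read 12.62, 9.91, 10.42 and 9.69 with corn oil and 10.40, 9.28, 11.77 and 10.71 with TCDD. In L-E only TCDD replicate 2 fell within the range of the controls, and in H/W the highest rat of all 8 was corn oil replicate 1, the same rat that was high for Elovl6.

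The Scd difference was 2.46 ± 0.66 in L-E (5.52-fold, adjusted p = 0.0823), 1.07 ± 0.68 in LnC (0.622), -0.12 ± 0.75 in H/W (0.925) and 0.39 ± 0.36 in LnA (0.825), so no strain/line passed. The H/W value turned positive without corn oil replicate 1 (0.54) or TCDD replicate 2 (0.30), and within scan days it was -2.22, 0.36 and 1.02. Its response differed between L-E and H/W by 2.58 ± 1.05 (interval 0.32 to 4.84, unadjusted p = 0.0281, adjusted p = 0.458), and between the collectives by 1.63 ± 0.68 (interval 0.23 to 3.02, unadjusted p = 0.0239, adjusted p = 0.581). LnC rats read 10.82, 11.70, 12.17 and 10.13 with corn oil and 11.27, 11.26, 13.02 and 13.55 with TCDD. LnA rats read 12.08 to 13.68 with corn oil and 13.02 to 13.93 with TCDD, so LnA was high for Scd in either treatment.

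All 3 h TCDD livers were high for Scd, at 13.46, 13.97, 13.35 and 13.83 in L-E and 13.24, 13.44, 13.09 and 13.01 in H/W. They exceeded every 19 h rat of their strain, treated or not. From 3 h to 19 h after TCDD the difference was -1.41 ± 0.52 in L-E (adjusted p = 0.150) and -2.65 ± 0.47 in H/W (6.28-fold, adjusted p = 0.0121). The H/W value passed the threshold when genes of low signal were left out (0.00471), with a trended prior (0.0061), with array weights (0.00257) and in a fit over all 10 groups (0.00254). It also passed without TCDD 19 h replicate 2 (0.00987) or 3 (0.00483). The threshold was missed in 5 of the 9 alternatives (adjusted p up to 0.0638) and with any 1 of 6 of the 8 arrays left out (up to 0.0363). With no vehicle group of 3 h analysed here, time after TCDD, hour of dosing and scan day cannot be told apart here.

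Fads1 and Fads2, the desaturases of polyunsaturated acids, passed the threshold in no comparison. Fads1 read 10.99 to 11.93 in L-E with corn oil and 11.28 to 12.32 with TCDD, 11.54 to 11.97 and 10.29 to 11.50 in LnC, 10.88 to 11.64 and 10.79 to 11.55 in LnA, and 11.75 to 12.08 and 11.01 to 11.81 in H/W. The LnC groups did not overlap and the others did. TCDD minus corn oil was 0.26 ± 0.29 for L-E, -0.44 ± 0.16 for H/W, -0.62 ± 0.27 for LnC and -0.31 ± 0.21 for LnA, with adjusted p from 0.320 to 0.730.

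Fads2 read 9.32, 9.98, 10.39 and 10.20 in corn oil L-E rats and 10.10, 9.76, 11.46 and 11.13 after TCDD, and the H/W rats read 9.51, 9.35, 9.75 and 9.82 and then 9.20, 8.40, 9.31 and 9.40. The point estimates had opposite signs, 0.64 ± 0.43 in L-E and -0.53 ± 0.23 in H/W, and again -0.59 ± 0.31 in LnC and 0.48 ± 0.30 in LnA. The difference of response was 1.17 ± 0.50 for L-E minus H/W (interval 0.09 to 2.25, adjusted p = 0.477) and -1.07 ± 0.45 for LnC minus LnA (interval -2.03 to -0.11, adjusted p = 0.981). Sensitive minus resistant thus had opposite signs in the strains and in the lines, and the collectives differed by 0.05 ± 0.35 (interval -0.66 to 0.76), a value whose sign turned when any 1 of 10 of the 32 arrays was left out. At 3 h Fads2 read 9.73, 10.18, 9.63 and 10.14 in L-E and 7.63, 8.90, 7.88 and 8.43 in H/W, which do not overlap (1.71 ± 0.29, 3.27-fold, adjusted p = 0.0167). It passed the threshold with low genes left out (0.00811) and in a fit over all 10 groups (0.0011). In 7 of the 9 alternatives it missed the threshold (adjusted p up to 0.0342), as it did with each array left out in turn (up to 0.0477).

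**Figure D2:**
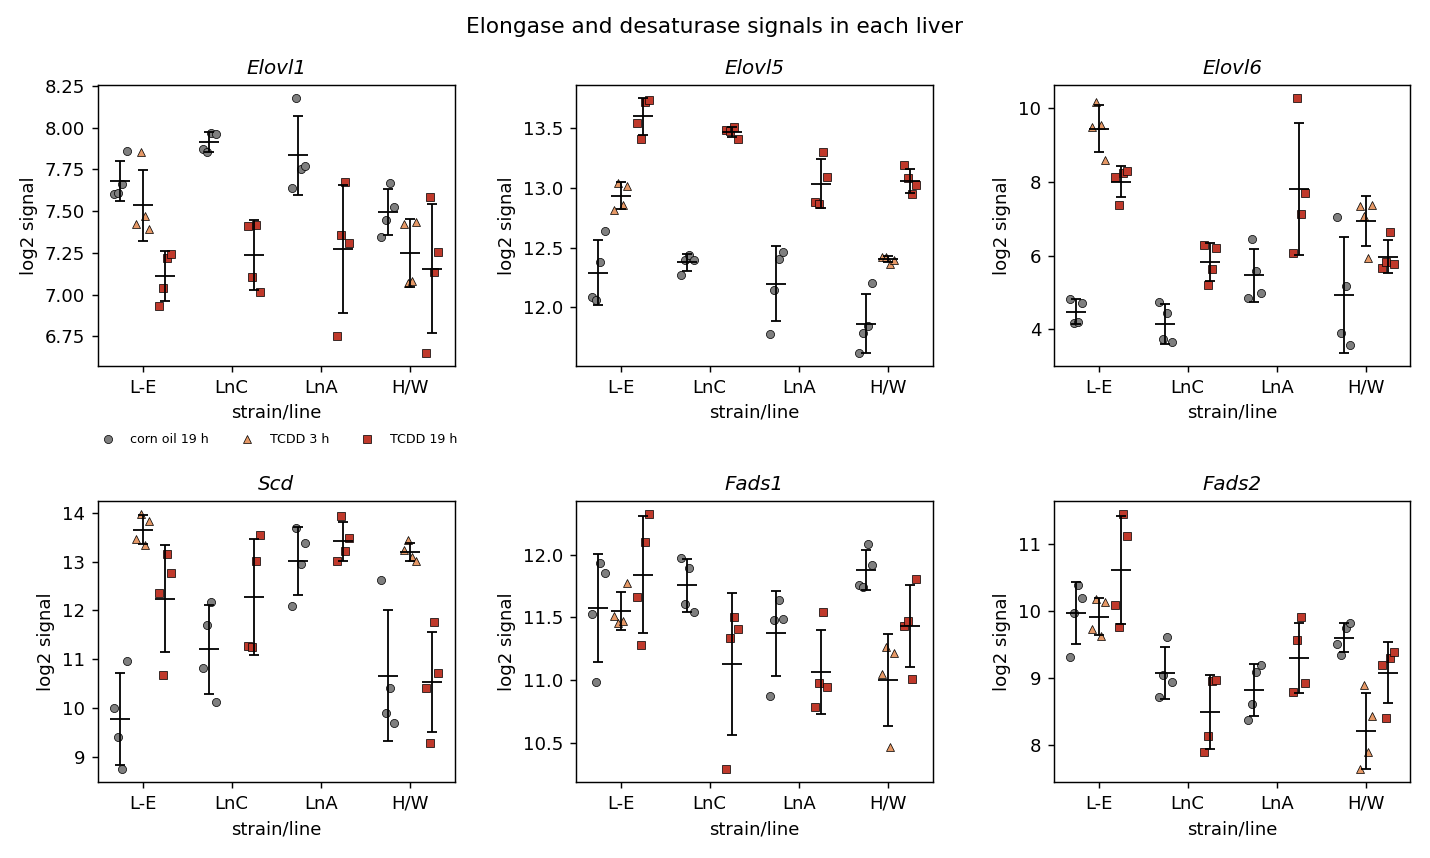
Log2 signal (y axes) of the 6 measured genes in each of the 40 livers, by strain/line (x axes), with bars for the mean ± SD of 4 rats. Elovl5 separates TCDD at 19 h from corn oil in all 4 strains/lines, Elovl6 does so in L-E and LnC, and Scd is at 13.01 or above in all 8 livers taken 3 h after TCDD.

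Counted together, 2 of the 6 genes were called in L-E (Elovl5 and Elovl6, both higher), where 2.06% of all 10411 genes were called and 0.941% were higher. In LnC 1 of 6 was called (Elovl5, background 1.13%), in LnA 0 of 6 (1.09%, with 3 at an unadjusted p under 0.05, as were 14.2% of all genes) and in H/W 1 of 6 (Elovl5, 0.423%). The groups did not overlap for 3 of 6 genes in L-E (13.3% of all genes) and 4 of 6 in LnC (9.9%), nor for 1 of 6 each in H/W (8.08%) and in LnA (8.9%). The median difference of the 6 genes was 0.98 in L-E and 0.24 in LnC (0.01 and 0.00 over all genes), and -0.23 in H/W and 0.44 in LnA (-0.04 and -0.01). These counts rest on few genes, and the values of the members lay on both sides of 0 in every strain/line.

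**Figure D3:**
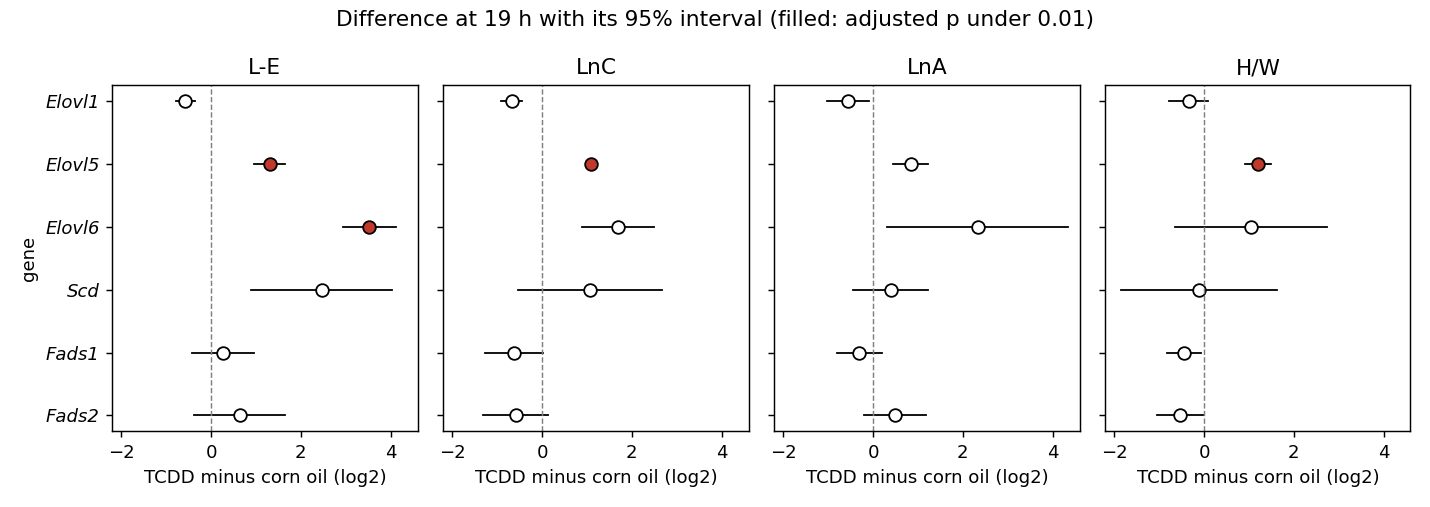
TCDD minus corn oil at 19 h (x axes, log2) for the 6 genes (y axis) in the 4 strains/lines, 4 rats against 4, with 95% intervals from limma, filled where the adjusted p is under 0.01. Elovl5 lies to the right of 0 in every panel, Elovl1 to the left, and the intervals of Elovl6 and Scd are widest in LnA or H/W.

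No member was called for a difference of response, where 0.0384% of all genes were called between L-E and H/W, 0.0768% between LnC and LnA and 0.0961% between the collectives. At an unadjusted p under 0.05 there were 3 members (Elovl6, Fads2 and Scd), 1 (Fads2) and 1 (Scd), against 9.7%, 4.76% and 7.93% of all genes. For Elovl5 the difference of response was 0.11 ± 0.20 for L-E minus H/W (interval -0.31 to 0.54), 0.26 ± 0.18 for LnC minus LnA (-0.14 to 0.65) and 0.18 ± 0.14 for the collectives (-0.10 to 0.47). These values are from 1388348_at. On 1387630_at they were -0.26 (interval -0.98 to 0.45), 0.47 (0.003 to 0.94, unadjusted p = 0.0487, not called after adjustment) and 0.10 (-0.31 to 0.52), so the sign between L-E and H/W depends on the probe set. A p that misses the threshold does not show that strains/lines responded alike. These comparisons use the same corn oil and TCDD rats as the comparisons within each strain/line.

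In rats given corn oil alone no member was called between L-E and H/W (background 0.999%, with no overlap for 0 of 6 against 8.41% of all genes, and 1 member at an unadjusted p under 0.05, as were 16.9% of all genes) or between LnC and LnA (0.394%, 1 member against 9.45%). Scd differed by -1.81 ± 0.67 for LnC minus LnA (interval -3.25 to -0.38, adjusted p = 0.324), and by mean level the controls ran from 9.78 in L-E through 10.66 in H/W and 11.21 in LnC to 13.02 in LnA, with overlap between each neighbour and the next. Elovl6 differed by -1.32 ± 0.61 for LnC minus LnA (adjusted p = 0.528), where the groups did not overlap (5.68% of all genes). Elovl5 differed by 0.43 ± 0.16 for L-E minus H/W (adjusted p = 0.214), with a mean of 12.29 ± 0.28 against 11.86 ± 0.25 (SD, n = 4), and by 0.92 ± 0.25 on 1387630_at (adjusted p = 0.0786).

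At 3 h, 1 of 6 members was called between L-E and H/W (Elovl5, background 2.18%) and 4 of 6 did not overlap (32.5%). All 6 members had the higher mean in L-E, 5 of them at an unadjusted p under 0.05, which 35.2% of all genes also reached. Between 19 h and 3 h, 1 of 6 was called in L-E (Elovl5, 4.01%) and 1 of 6 in H/W (Elovl5, 5.15%), and 4 and 2 of 6 did not overlap (18.9% and 17.8%). The comparison of strains at 3 h and those of times share their 3 h arrays, as do those of times and treatments their 19 h arrays.

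The partners of the elongases in the same cycle are the ketoacyl reductase Hsd17b12, the dehydratases Hacd1 to Hacd4 and the enoyl reductase Tecr, of which 3 of 6 were measured. Hsd17b12 rose by 1.04 ± 0.12 in L-E (adjusted p = 0.00414, but 0.0105 with scan day as a block and up to 0.0180 without any 1 of 5 of the 8 arrays), and its differences were 0.76 in LnC (0.0194), 0.59 in H/W and 0.43 in LnA. The study had singled out Hsd17b12 on these same samples, with calls in L-E and LnC, so its values here are no independent evidence. Hacd3 rose by 0.69 ± 0.09 in LnA (adjusted p = 0.00923). That call was lost without any 1 of the 8 arrays (0.0105 to 0.0380), with replicate numbers as a block (0.0576) and with quantile normalization (0.0267), median centring (0.010) or every probe set tested (0.0108). Hacd3 stood at 0.77 in H/W, 0.47 in LnC and 0.52 in L-E without passing. Hacd2 was at -0.22 (L-E), -0.20 (LnC), -0.10 (H/W) and 0.09 (LnA) and was not called. The list thus had 1 of 3 called in L-E and 1 in LnA, both higher, and 0 in LnC and H/W, with medians of 0.52 (L-E), 0.43 (LnA), 0.47 (LnC) and 0.59 (H/W). Hsd17b12 also rose from 3 h to 19 h after TCDD in L-E (0.60 ± 0.09, adjusted p = 0.00649, up to 0.0219 without any 1 of 7 of the 8 arrays), and Hacd3 in H/W (0.80 ± 0.07, adjusted p = 0.000919).

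Desaturases take their electrons from cytochrome b5 and its reductases, of which 4 of 6 were measured. Cyb5a, the microsomal cytochrome b5, rose by 0.38 ± 0.03 in L-E (adjusted p = 0.000852) and by 0.36 ± 0.04 in LnA (0.00774, but 0.0494 with replicate numbers as a block and up to 0.0308 without any 1 of 7 of the 8 arrays), and stood at 0.42 in LnC and 0.39 in H/W without passing. From 3 h to 19 h after TCDD it rose by 0.49 ± 0.05 in L-E (adjusted p = 0.00162) and 0.58 ± 0.03 in H/W (0.000188). Cyb5r3, its reductase, was at -0.52 (L-E), -0.50 (LnC), -0.27 (H/W) and -0.14 (LnA), and Cyb5r4 at 0.39 in H/W, with no call. Cyb5b, the mitochondrial cytochrome b5, was lower in corn oil L-E than in corn oil H/W rats (-0.98 ± 0.18, adjusted p = 0.00863), but at -0.24 with the mean of its probe sets, and not called without any 1 of 14 of the 16 corn oil arrays (up to 0.0298). Of the other elongases and desaturases, 4 of 9 were measured and none was called in any comparison. Degs1 was the furthest from 0 in L-E, LnC and LnA (-0.27, -0.32 and -0.27) and Scd2 in H/W (-0.35), and Scd2 was at 1.82 for L-E minus H/W at 3 h.

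Genes that supply acyl-CoA and NADPH for the same products were all measured (10 of 10), and none was called between TCDD and corn oil in any strain/line. The furthest from 0 was Me1, the malic enzyme that provides NADPH, at 2.01 in L-E, 2.21 in LnA and 1.74 in H/W, and Thrsp, a lipogenic regulator protein, at 1.35 in LnC. Fasn, fatty acid synthase, was at -0.42 (L-E), -0.70 (LnC), -0.99 (H/W) and -0.37 (LnA). At 3 h after TCDD 3 of the 10 were called as higher in L-E than in H/W, where 2.18% of all genes were called. They were Me1 (3.97 ± 0.29, adjusted p = 0.000918), Thrsp (1.31 ± 0.14, adjusted p = 0.00339) and the citrate carrier Slc25a1 (0.33 ± 0.04, adjusted p = 0.00602). The list median was 0.70 against -0.04 over all genes, and 7 of the 10 had an unadjusted p under 0.05, as did 35.2% of all genes. Me1 held with each array left out, whereas Thrsp was lost without any 1 of 5 of the 8 arrays (up to 0.0144) and Slc25a1 without any 1 of 7 (up to 0.0202), with quantile normalization (0.0411) and with a trended prior (0.0134). Thrsp and Slc25a1 were also lost in a fit over all 10 groups (0.0222 and 0.0402) and with replicate numbers as a block (0.0257 and 0.0384). From 3 h to 19 h Acaca, acetyl-CoA carboxylase, fell by 1.62 in L-E (SE 0.14, adjusted p = 0.00122). In H/W Me1 (2.94 ± 0.23) and Slc25a1 (0.60 ± 0.07) rose over that time and Pklr, liver pyruvate kinase, fell by 0.93 (SE 0.12), with adjusted p of 0.000602, 0.00212 and 0.00382 (Pklr up to 0.0135 without any 1 of 5 of the 8 arrays).

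Of 13 regulators 12 were measured. Nr1h3, the oxysterol receptor LXR alpha that drives Srebf1 and Scd, rose by 0.63 ± 0.06 in LnC (adjusted p = 0.0022) and 0.97 ± 0.08 in H/W (0.00188) and stood at 0.74 in L-E (0.0122) and 0.69 in LnA (0.0154). It was the only one of the 12 called at 19 h against corn oil, where 1.13% of all genes were called in LnC and 0.423% in H/W. The H/W call was lost with scan day as a block (0.0204) and without any 1 of 3 arrays (up to 0.0111), the LnC call without any 1 of 2 (up to 0.0107). Srebf1, the lipogenic SREBP gene, was at -0.01 (L-E), -0.47 (LnC), -0.49 (H/W) and -0.29 (LnA). The regulators furthest from 0 otherwise were Srebf2 (-0.78) in L-E and Mlx (0.90, adjusted p = 0.0113) in LnA, and Mlxipl (0.96, adjusted p = 0.0306) for L-E minus H/W at 3 h. From 3 h to 19 h after TCDD Srebf1 (1.57 ± 0.22), Srebf2 (1.56 ± 0.17) and Nr1h3 (0.63 ± 0.05) rose in H/W (adjusted p = 0.0045, 0.00168 and 0.000523). In that comparison 5.15% of all genes were called. Srebf2 was at 0.76 with the mean of its probe sets (0.00159), and the Srebf1 call was lost without any 1 of 6 of the 8 arrays (up to 0.0156). In L-E Rxra, the partner of LXR alpha, rose by 0.52 ± 0.07 (adjusted p = 0.00385), a call lost in a fit over all 10 groups (0.478), with median centring (0.0101) and without any 1 of 6 of the 8 arrays (up to 0.0140). Among 19 genes of acyl-CoA handling and the peroxisomal step of docosahexaenoic acid synthesis 15 were measured, and none was called between TCDD and corn oil. The furthest from 0 were Acsl4 in L-E (-0.66), Acox2 in LnC and H/W (0.78 and 1.01) and Acsl5 in LnA (0.70), and from 3 h to 19 h Scp2 rose by 0.36 ± 0.05 in L-E (adjusted p = 0.00661), but was at 0.14 with the mean of its probe sets (0.0501) and not called without any 1 of 7 of the 8 arrays (up to 0.0232).

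**Figure D4:**
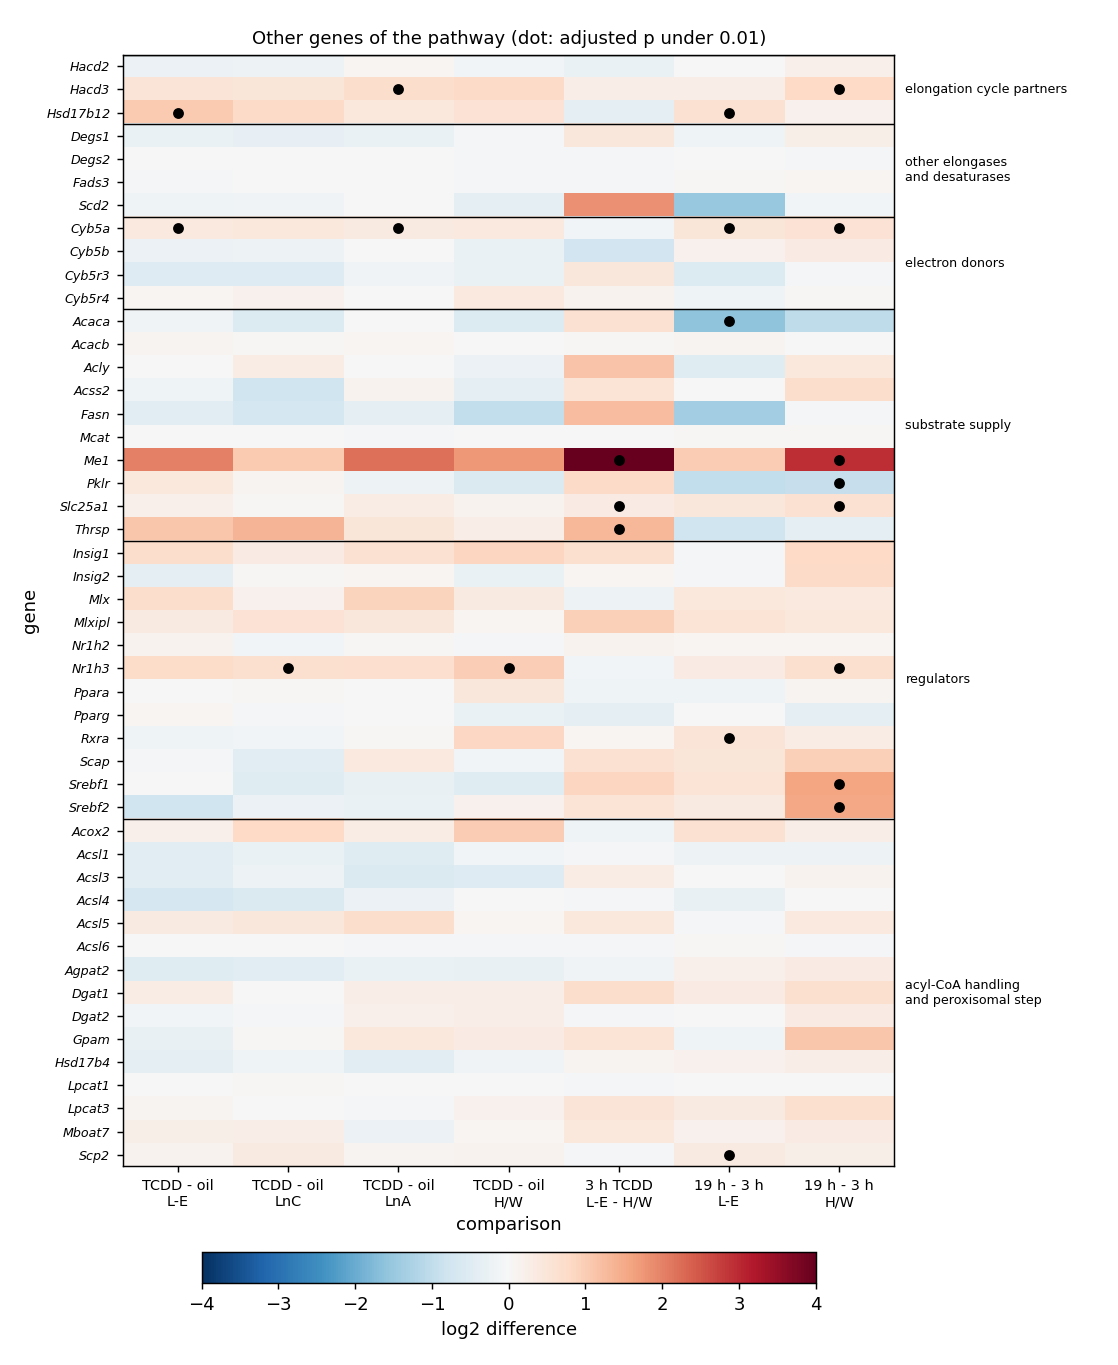
Log2 difference (colour) of the other measured genes of the pathway (y axis, grouped by role) in 7 comparisons (x axis), 4 rats against 4, with a dot where the adjusted p is under 0.01. Dots at 19 h against corn oil are on Hsd17b12, Hacd3, Cyb5a and Nr1h3, all higher, and the supply genes Me1, Slc25a1 and Thrsp carry them at 3 h for L-E over H/W.

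Within groups, the members did not vary as a single block. Over the 40 livers, each taken as its deviation from the mean of its own group, the correlation was 0.631 between Fads1 and Fads2, 0.560 between Elovl6 and Scd, 0.538 between Elovl5 and Fads1 and 0.510 between Elovl5 and Fads2, and -0.214 between Elovl5 and Elovl6. The points share arrays, normalization and cages, so these values are a description. Elovl6 and Scd were high together in H/W corn oil replicate 1 and in LnA TCDD replicate 2 and low together in L-E TCDD replicate 2. On 1388348_at Elovl5 was the lowest of its group in H/W corn oil replicate 1 (11.62) and LnA TCDD replicate 2 (12.87). L-E TCDD replicate 2 was the lowest of its group for Elovl5 as well (13.41). On 1387630_at only this L-E rat was the lowest of its group (11.45), the H/W and LnA rats reading 9.04 and 10.78.

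**Figure D5:**
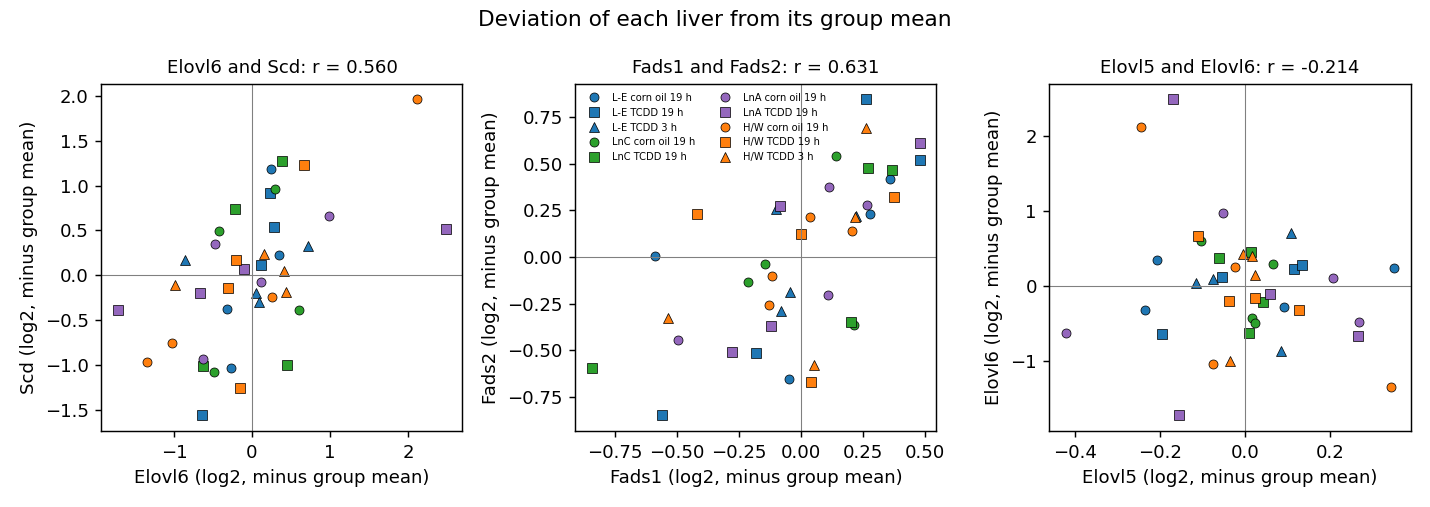
Deviation of each of 40 livers from its group mean (log2) for 3 pairs of members, with strain/line by colour and treatment and time by marker. The points rise together for Elovl6 and Scd (r = 0.560) and for Fads1 and Fads2 (r = 0.631), and not for Elovl5 and Elovl6 (r = -0.214).

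The genes whose signals were most like each member over the 40 arrays, by Pearson's correlation among genes above the lowest array median, were Fam8a1 (0.902) and Exoc3 (0.883) for Elovl5, Mpzl1 (0.816) and Eva1a (0.802) for Elovl6, Bhmt (0.827) and Rpa1 (0.804) for Scd, Dbi (0.775) and Ano10 (0.769) for Fads2, Baat (0.694) and Prdx4 (0.689) for Elovl1, and Nectin2 (0.653) and Sc5d (0.649) for Fads1. These correlations include the differences between groups. Elovl1 and Fads1 had no gene above 0.7.

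Of the whole series, array medians lay between 3.52 and 3.76, arrays of a group correlated at 0.992 to 0.996 over probe sets and no pair was identical. Arrays were scanned on 5 days, with all LnA and LnC arrays on a single day and TCDD and corn oil arrays of L-E and H/W on the same days. Cyp1a1, the AHR target used to check the treatment labels, was higher in every TCDD rat than in every corn oil rat of its strain/line, with adjusted p from 0.000823 to 0.0142 (H/W). Its corn oil signals were as low as 2.13, below the array medians, and were highest in H/W replicate 3, so no size is given for its difference. Hepatocyte markers (6 of 7 measured) were high throughout, and no marker of fat, macrophage, bile duct, stellate, endothelial, blood or pancreatic cells was called between TCDD and corn oil. Of the fat cell markers 4 of 6 were measured, and Plin1, Lep and Fabp4 lay below the lowest array median in every group. The summed macrophage markers (3 of 6) were higher in L-E than in H/W at 3 h, at 10.64 to 11.38 against 9.65 to 10.33 with Csf1r called, and at 19 h with corn oil, at 10.18 to 10.77 against 9.40 to 10.10. They were also higher in LnC (10.13 to 10.47) than in LnA (9.69 to 9.77) with corn oil. Summed fat cell markers were higher in L-E than in H/W with corn oil (5.23 to 5.72 against 4.76 to 5.05) and at 3 h (5.10 to 5.74 against 4.62 to 5.03), where the hepatocyte sum also was (17.62 to 17.68 against 17.49 to 17.54). Among the fat cell markers only Cfd had the higher mean in L-E, at 4.63 against 3.29 with corn oil and 4.55 against 3.12 at 3 h. Plin1, Lep and Fabp4 had slightly lower means in L-E in both comparisons. In L-E the blood and pancreas sum was higher at 19 h than at 3 h after TCDD (12.02 to 13.03 against 11.42 to 11.92) and the bile duct sum lower (5.57 to 5.73 against 5.75 to 6.16). Hbb (mean 12.51 against 11.59) and Alas2 (6.21 against 5.26), both of blood, were higher at 19 h, whereas pancreatic Cela1 was lower (6.15 against 6.80). Epcam was the bile duct marker that was lower (4.80 against 5.30), and Krt19, Krt7 and Spp1 lay below the lowest array median. The marker sums moved with the strain, line and time differences given above, in which their part was not tested. Cela1, a pancreatic elastase, was lower in L-E than in H/W at 3 h (-2.41) and had the lower L-E mean with corn oil too (6.99 against 8.93). The other pancreatic markers, Prss1 and Cpa1, lay below the lowest array median. Cps1, a urea cycle enzyme of hepatocytes, was lower at 19 h than at 3 h in L-E (-0.78). The hepatocyte sums of these groups overlapped (17.48 to 17.68 against 17.62 to 17.68). Mean Apoa1, Hnf4a and Serpina1 were higher at 19 h, and Alb and Ttr slightly lower. In whole liver, a smaller number of cells of a type and less mRNA per cell cannot be told apart.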

How the data were processed

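Affymetrix RAE230A arrays of 40 rat livers (10 groups of 4) were analysed. The authors deposited 1 log2 signal for each probe set and array. R 2.3.1, affy 1.10.0 and GCRMA 2.4.1 are named in the submitters' notes on processing, and the paper's RMA with an Entrez probe map was not repeated. Scan days came from the deposited scanner text files (unit other, no expression values). Groups came from the sample labels.

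Control probe sets (57 of 15923) were dropped. A single symbol belongs to 12783 of the rest, several to 312 and none to 2771, giving 10411 genes. A gene with several probe sets (1868 genes) was represented by that with the highest mean over the 32 arrays of 19 h, so Elovl5 by 1388348_at. All 7 member probe sets have an Entrez ID in RefSeq and 0 symbols differ there. No low signal was filtered. R 4.3.3 with limma 3.58.1 (lmFit, eBayes) was fitted to the groups compared, all 8 groups of 19 h for the collectives and the 4 corn oil groups for controls, with Benjamini-Hochberg adjustment over 10411 genes and the study's threshold of 0.01. The number of arrays limits the precision. The step was tested on simulated data.

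The members, the pathway and marker lists and the tests were chosen with earlier results of these data known. Genes of the lists were named if called or furthest from 0 in a TCDD comparison. To check for pairing by the replicate numbers of the labels, deviations from group means of same-numbered TCDD and corn oil rats were correlated (2245 genes). Every such pair correlated above 0.1 in LnA (0.119 to 0.164). This did not hold in L-E (0.0659 to 0.287), LnC (-0.264 to 0.0913) or H/W (0.0111 to 0.149). Neither labels nor paper state a pairing. The main fits used no pairing, also in LnA, and replicate numbers entered as a block only among the alternatives. Alternatives were another choice of probe sets, leaving out the lowest 40% of genes, quantile normalization, median centring, a trended prior, array weights, blocks by replicate number or scan day, a wider fit and leaving out each array. Promoter windows came from RefSeq (GRCr8).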

Additional observations from a re-analysis of the deposited data

Results flagged for a closer look

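In 70 groups of 4 rats (7 probe sets in 10 groups) the gap of the extreme rat to its nearest neighbour was divided by the range of the group, and 5 ratios exceeded the 95% critical value of Dixon's test for 4 values, where chance alone gives about 1 group in 20. Fads1 in L-E TCDD 3 h replicate 4 (11.77 against 11.45 to 11.51) gave 0.830, and Elovl1 in L-E TCDD 3 h replicate 2 (7.85 against 7.39 to 7.47) gave 0.831. Fads1 in LnC TCDD 19 h replicate 1 (10.29 against 11.33 to 11.50) gave 0.864, and it is the rat furthest below the LnC controls. Elovl6 in H/W TCDD 19 h replicate 3 (6.64 against 5.66 to 5.81) gave 0.845. Elovl5 on 1387630_at in LnA corn oil replicate 1 (9.13 against 9.70 to 9.80) gave 0.860, and that rat was also the lowest of its group on 1388348_at (11.78).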

How the results depend on the processing

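Of 678 values of members under alternatives other than leaving out an array, 653 kept direction and side of the threshold, 7 lost it, 13 gained it, 0 reversed among called values, and 5 that were not called changed sign. The number of members called moved as follows. In L-E it was 3 with low genes left out (Elovl1 added). In LnC it was 2 with low genes left out, array weights or 1 fit over the 8 groups of 19 h (Elovl1 added), and 0 with the replicate block (Elovl5, adjusted p = 0.0119). In LnA it was 1 in the fit over 8 groups (Elovl5, 0.00036). In H/W it was 0 with quantile normalization, median centring, the replicate block or scan day as a block (Elovl5, 0.0129, 0.0128, 0.0441 and 0.0245). For L-E minus H/W at 3 h it was 3 with low genes left out or 1 fit over all 10 groups, and 0 with the replicate block. For 19 h minus 3 h it was 0 in L-E with the replicate block, and in H/W it was 2 with low genes left out, a trended prior, array weights or 1 fit over all 10 groups (Scd added). With each array left out in turn the count ran from 1 to 2 for L-E and from 0 to 1 for H/W against corn oil, from 0 to 1 between the strains at 3 h, and from 0 to 1 (L-E) and 1 to 2 (H/W) between times. It stayed at 1 for LnC and at 0 for LnA against corn oil, and at 0 for all 3 differences of response and both corn oil comparisons. The replicate block removes degrees of freedom. With it 40 genes were called in L-E (34 of them among the 214 called without it), 5 in LnC (5 of 118), 18 in H/W (16 of 44) and 11 in LnA (10 of 113), and in LnA it changed no call of a member. Of 23 calls of pathway genes, 20 were lost with that block, 10 held with each array left out in turn and 3 under all alternatives (Cyb5a and Me1 between times in H/W, Me1 at 3 h). Causes of the other changes were not tested.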
